A study of Mus musculus with 6 samples.

Results

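A set of 57 developmental transcription factors, chosen as genes that Polycomb typically marks with trimethylated lysine 27 of histone H3 (H3K27me3), was followed through messenger RNA of mouse eggs. The members were the rows with these symbols, and all 57 were found in the count table (n = 24062 genes). They comprise 16 Hox genes, 5 LIM homeobox genes, 8 Pax genes, 5 Gata genes, 6 T-box genes (Eomes included), 3 Sox, 4 Fox and 4 Nkx genes, and Six2, Otx2, Dlx5, Neurog1, Hand1 and Cdx2. No mark was measured here, so their status as Polycomb targets comes from what is known of other cells.

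The eggs were ovulated and arrested in metaphase II (MII), and came from superovulated females 8 weeks old. All females carried the multicolour transgene HISRainbow and Figla-iCre, a recombinase active in oocytes, so every group shares these. The colour of an egg under the confocal microscope told which of 3 tagged H3.3 histones, variants laid down outside DNA replication, it made. Eggs of the H3.3 group expressed unmutated H3.3-eGFP. Eggs of the K27R group expressed H3.3K27R-mCherry, with lysine 27 replaced by arginine, and eggs of the R26K group H3.3R26K-eCFP, with arginine 26 replaced by lysine. Tag and substitution cannot be told apart, and the labels name no deletion of the eggs' own H3.3 genes. Each group had 2 libraries, called biological replicates in the labels, and how many eggs or females went into each is unknown here.

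Polycomb repressive complex 2 methylates lysine 27 of histone H3, and complex 1 binds that mark and helps to keep the gene silent. Genes of the body plan and of early lineages lie under this mark in many cell types until a lineage needs them. An arginine in place of lysine 27 can carry neither the methylation nor the acetylation of that residue, while arginine 26 is its neighbour. Eggs at MII make little RNA, and most of what they hold was stored while the oocyte grew.

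Libraries held 10803477 to 39603440 counts in total, with the 2 highest totals in R26K. Counts were found for 7590 and 7392 genes in H3.3, 10715 and 7405 in K27R eggs, and 12135 and 12112 in R26K, so K27R replicates 1 and 2 also differed from each other. Of 15 egg markers, 14 were counted in every library (Oog1 had no count), and Gdf9 stood at 11020 to 16112 CPM (library-scaled CPM, that is, each count relative to the scaled library total). Not all were alike: Zar1 was at 194 and 269 CPM in H3.3 eggs, 177 and 217 in K27R eggs, and 4308 and 4082 in R26K. The edgeR test described below called it higher in R26K against H3.3 (adjusted p = 0.0113) and against K27R (0.0174). No other of 14 tested markers was called. In the fit of H3.3 and R26K alone Zar1 was not called (0.0705). Dppa3 was lower in R26K, at 4417 and 3274 CPM against 8791 and 12357 in H3.3 (edgeR adjusted p = 0.0966). Of 36 markers of cumulus and granulosa cells, the somatic cells around the egg, 8 and 13 were counted in H3.3, 19 and 5 in K27R eggs, and 22 and 17 in R26K. A list of 35 markers of cells of oviduct, blood and stroma (Pax8, a member, among them) gave 8 to 11 counted per library. A count of 0 allows a level of up to 3 counts, which was 0.23 and 0.255 CPM in H3.3 eggs, 0.244 and 0.285 in K27R eggs, and 0.0813 and 0.0906 in R26K. The floors allow for counting error alone: amplified reads do not stand for separate molecules.

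Most members were silent or nearly so in every group. Of the 57 members, 31 (54.4%) had no count in any library, against 40.8% of all genes in the table. H3.3 libraries held counts for 8 and 5 members, those of K27R for 14 and 5, and those of R26K for 16 and 13. As shares of the list these were 14% and 8.77%, 24.6% and 8.77%, and 28.1% and 22.8%. The shares over all genes were 31.5% and 30.7%, 44.5% and 30.8%, and 50.4% and 50.3%, higher than those of the members in each library. Both for members and for all genes, R26K and K27R replicate 1 gave the 3 highest shares. With 2 libraries against 2 an exact permutation test cannot give a p below 0.33, so these numbers were not tested.

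**Figure D1:**
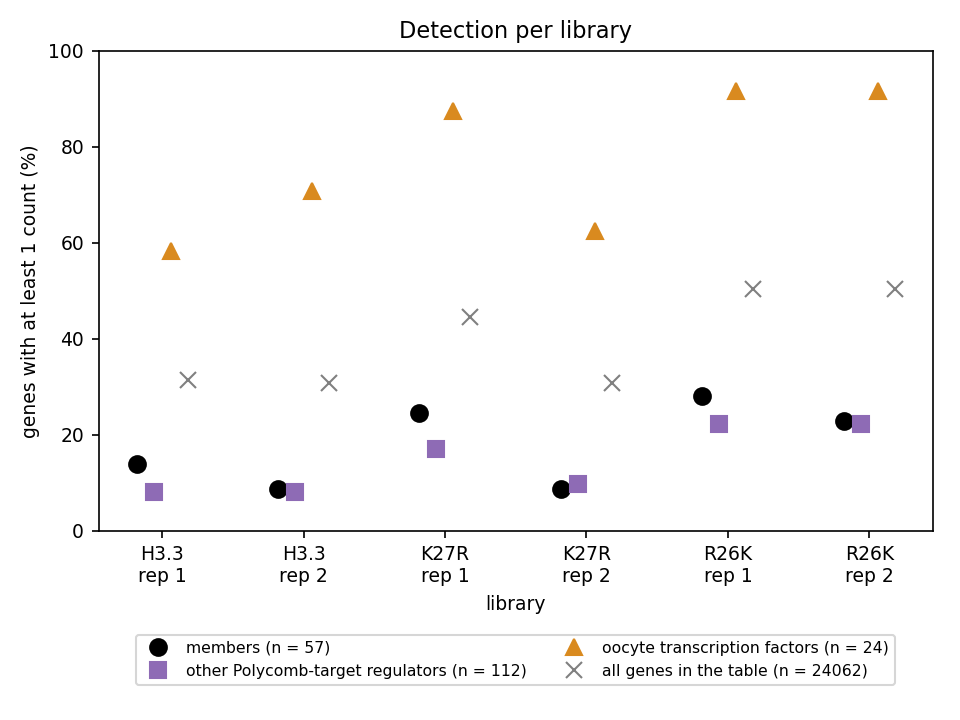
Share of genes with at least 1 count in each library (vertical axis, percent) for the 57 members, other developmental regulators of the same kind, 24 oocyte transcription factors and all genes. Members lie between 8.77% and 28.1%, below all genes in each library, and oocyte factors lie between 58.3% and 91.7%.

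The members were also counted at equal depth. Thinned to the smallest library total, the expected number of members counted was 14.5 and 12.6 in R26K and 13.9 in K27R replicate 1, and 7.85 in H3.3 replicate 1. At a level of at least 1 CPM the numbers were 5 and 3 in H3.3 eggs, 11 and 4 in K27R eggs, and 12 and 11 in R26K. Of all 24062 genes, 6558 and 6343, 9369 and 6383, and 10181 and 10341 reached that level, in the same order. A list of 24 oocyte transcription factors, such as Nobox and the Obox genes, was counted to 58.3% and 70.8% in H3.3, 87.5% and 62.5% in K27R eggs, and 91.7% and 91.7% in R26K. A list of other developmental regulators, relatives of the members, resembled the members, with 67.9% never counted in the 6 libraries and 9 and 9, 19 and 11, and 25 and 25 counted in the libraries in the same order.

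CpG dinucleotides, the sites of DNA methylation, were counted in the promoters of the members. Whether this feature is independent of a list chosen by a chromatin mark was not tested. Promoter windows from RefSeq (GRCm38.p6, 250 bases before to 50 after the start of a transcript) were matched for 40 of the 57 members. They held a median of 17.5 CpG sites, on either strand alike, against 14 over the 16781 genes of the table with a window, with quartiles of 10.8 to 29.4 and 4 to 24 that overlap. The other developmental regulators, of which 71 were matched, had a median of 20, above that of the members. The 16 matched members with a count had a median of 23 and the 24 without had 16, with quartiles of 13.2 to 31.6 and 9.88 to 26.8 that overlap widely. The 24 oocyte factors, of which 20 were matched, had 7.25. The 250 bases upstream of the start are shown 5′ to 3′ for 4 members that span the range of expression, with CpG sites in capitals. Gata3 (chr2:9878601-9878850, minus strand) was counted in every library and Gata5 (chr2:180334680-180334929, minus strand), of the same family, in none. Lhx2 (chr2:38339031-38339280, plus strand, the first of 2 windows) and Hoxd13 (chr2:74667975-74668224, plus strand) had no count in H3.3 and counts in both R26K libraries.
Gata3: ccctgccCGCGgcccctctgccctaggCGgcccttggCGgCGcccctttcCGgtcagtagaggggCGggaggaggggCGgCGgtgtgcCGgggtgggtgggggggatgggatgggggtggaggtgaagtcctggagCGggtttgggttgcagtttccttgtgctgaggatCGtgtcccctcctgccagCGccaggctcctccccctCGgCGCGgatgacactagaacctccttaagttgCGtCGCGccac
Gata5: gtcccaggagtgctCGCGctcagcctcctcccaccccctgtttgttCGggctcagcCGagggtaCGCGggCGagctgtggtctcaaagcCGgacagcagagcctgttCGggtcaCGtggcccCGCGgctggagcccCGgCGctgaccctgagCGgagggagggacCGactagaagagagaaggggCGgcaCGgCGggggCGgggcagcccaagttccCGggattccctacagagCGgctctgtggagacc
Lhx2: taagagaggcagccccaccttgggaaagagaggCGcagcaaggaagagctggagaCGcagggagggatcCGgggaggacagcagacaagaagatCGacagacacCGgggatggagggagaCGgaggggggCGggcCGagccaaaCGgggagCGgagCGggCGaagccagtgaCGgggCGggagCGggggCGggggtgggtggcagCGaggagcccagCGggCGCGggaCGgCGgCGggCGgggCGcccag
Hoxd13: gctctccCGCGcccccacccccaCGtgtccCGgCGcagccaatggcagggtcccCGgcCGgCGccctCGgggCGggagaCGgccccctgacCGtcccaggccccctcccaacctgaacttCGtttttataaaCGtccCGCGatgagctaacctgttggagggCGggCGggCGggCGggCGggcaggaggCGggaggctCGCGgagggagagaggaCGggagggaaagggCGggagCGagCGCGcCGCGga
These stretches hold 19, 22, 25 and 31 CpG sites, in that order, so the silent Gata5 and the counted Gata3 differ little in this feature.

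The question the list raises is whether members silent in H3.3 eggs were counted in eggs with a substituted lysine 27 or arginine 26. In R26K, 3 of the 47 members without a count in either H3.3 library were counted in both libraries (6.38%), namely Lhx2, Pax2 and Hoxd13. Over all genes the share was 17.4%, or 2586 of 14875, so release from zero was no more frequent among the members than elsewhere. In K27R, 2 of the 47 were counted in both libraries (4.26%), Lhx2 and Pax2, against 3.98% of all genes. Thinned to equal depth, the shares over all genes were 16.2% in R26K and 3.97% in K27R, and those of the members stayed at 6.38% and 4.26%. In the reverse direction, none of the 36 members without a count in R26K was counted in both H3.3 libraries, against 0.28% of all genes, and none of the 42 without a count in K27R, against 0.638%. Only 3 members were counted in both H3.3 libraries at all, so these zeros say little about direction. Between the substitutions, none of the 42 without a count in K27R was counted in both R26K libraries, against 9.28% of all genes, and none of the 36 without a count in R26K in both K27R libraries, against 0.392%. No member was counted in both libraries of 1 group and in no other library.

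Taken library by library, a comparison added after the data were seen, the members again lay near or below the background. K27R replicate 1 held counts for 8 of the 47 (17%, all genes 16.8%) and K27R replicate 2 for 3 (6.38%, all genes 6.22%). R26K replicate 1 held counts for 11 (23.4%, all genes 23.9%) and R26K replicate 2 for 7 (14.9%, all genes 24%). With only H3.3 replicate 1 or only H3.3 replicate 2 as the reference, R26K gave 4 of 49 and 4 of 52 members, against 23.1% and 23.9% of all genes. K27R gave 2 of 49 and 3 of 52, against 6.67% and 8%.

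The replicates of a group seldom agreed on which members they held. Of the 26 members with a count, 11 were counted in a single library, and 1, Gata3, in all 6. Of members counted in at least 1 library of a group, both libraries held 3 of 10 in H3.3 eggs, 4 of 15 in K27R and 8 of 21 in R26K (30%, 26.7% and 38.1%). For all genes the shares were 63.1%, 61.5% and 81.5%. Restricted to genes whose higher library was under 20 CPM, the members gave 28.6%, 23.1% and 27.8%, and all genes 32.9%, 33.4% and 69.7%. In H3.3 and K27R the agreement at low levels was thus close to that of other rare transcripts, while in R26K it was lower, a difference that was not tested.

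**Figure D2:**
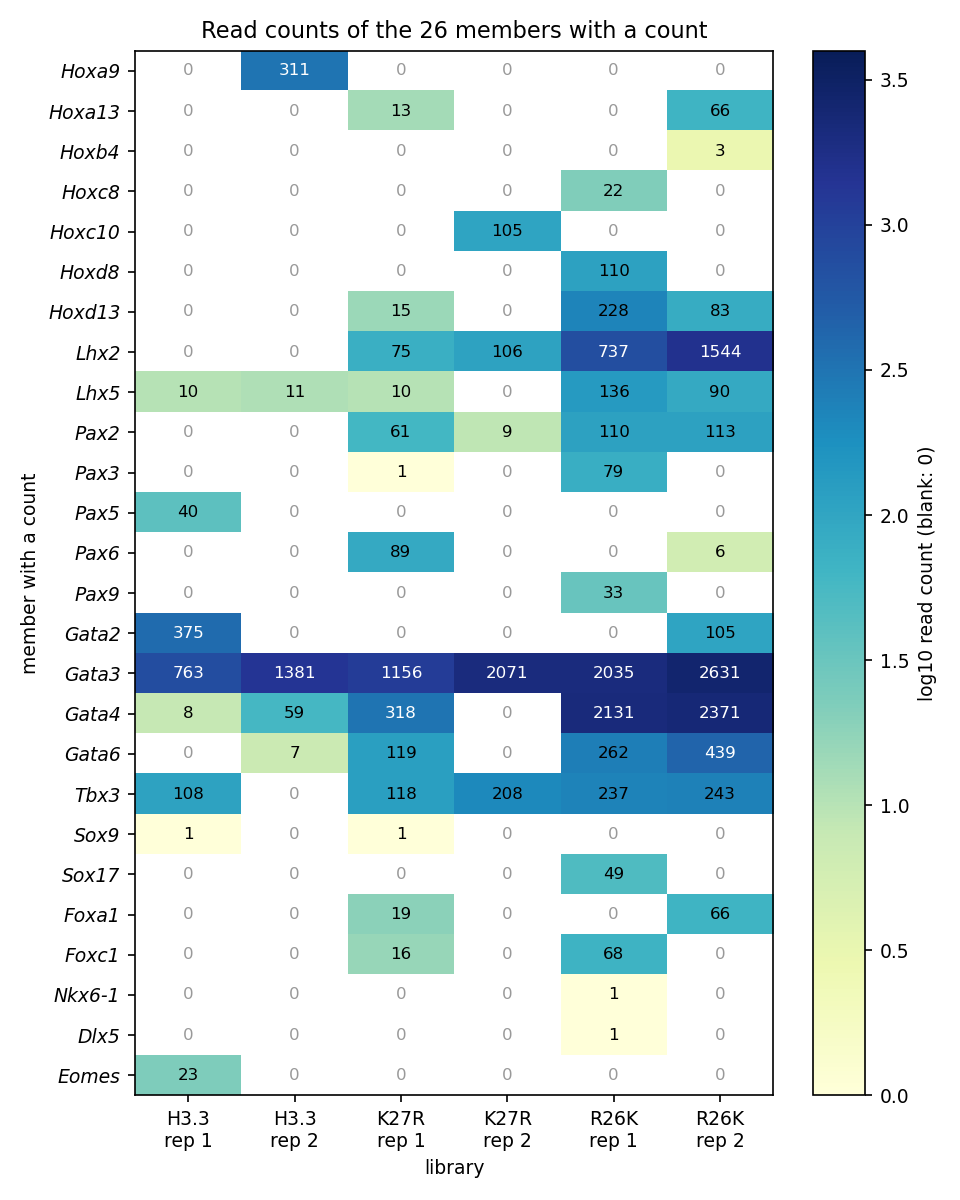
Read counts (number and colour, log10 scale) of the 26 members with a count, in rows, in the 6 libraries, in columns; white cells hold 0. Gata3 is counted in every library, and 11 members are counted in a single library, such as Hoxa9 with 311 counts in H3.3 replicate 2.

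Members were then compared between groups within a fit of all genes. A gene was tested when it had enough counts in at least 2 libraries (edgeR's filterByExpr), which 12 members passed: Gata2, Gata3, Gata4, Gata6, Lhx2, Lhx5, Pax2, Tbx3, Hoxa13, Hoxd13, Foxa1 and Foxc1. Several passed only through the group where they were high, so the 12 do not stand for the list. None of the 12 passed in any comparison (quasi-likelihood test of edgeR; adjusted p under 0.05 by Benjamini-Hochberg over 10667 genes). The shares of all tested genes called were 0.403% higher and 0.216% lower for R26K against H3.3, 0% and 0% for K27R against H3.3, and 0.169% and 0.206% for K27R against R26K. An unadjusted edgeR p under 0.05 was reached by 2 members in R26K and by 2 in K27R, each time Lhx2 and Pax2, and by none between K27R and R26K, against 2317, 759 and 1413 of all tested genes. The R26K and K27R comparisons share the H3.3 libraries and are not independent. DESeq2 called Lhx2 higher in both, where it called 13.4% and 6.06% of genes higher, and Gata2 lower in K27R against H3.3 and against R26K, where it called 1.74% and 5.77% lower. It called no member lower in R26K against H3.3 (4.64% of genes) or higher in K27R against R26K (2.81%), and gave no adjusted p for Pax2, Lhx5, Hoxa13, Hoxd13, Foxa1 and Foxc1.

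Among GATA factors, zinc finger proteins that bind the sequence they are named for, Gata3 had the most counts of any member in 5 of the 6 libraries, and Gata4 in R26K replicate 1 (34.2% of all member counts). Gata3 (chromosome 2, 9857078 to 9890034 on mm10), known from T cells and trophectoderm, was at 58.4 and 117 CPM in H3.3 eggs, 94 and 196 CPM in K27R eggs, and 55.2 and 79.4 CPM in R26K. The libraries of H3.3 overlap those of both other groups, while both K27R libraries lie above both R26K libraries. Its log2 fold change was -0.38 ± 0.60 (SE) in R26K (edgeR adjusted p = 0.795) and 0.73 ± 0.60 in K27R (0.731), both against H3.3. Between K27R and R26K it was 1.11 ± 0.61 (edgeR adjusted p = 0.555). The sign for R26K turned to 0.21 without H3.3 replicate 2. Per kilobase of exon its mean level of 25.2 CPM lay above 88.3% of the 14116 genes with a count and a length. Gata3 alone made up 57.5% and 78.1% of all member counts in H3.3, 57.5% and 82.9% in K27R eggs, and 32.6% and 33.9% in R26K. Exons of Gata3 overlap 155 bases of Gm13256 on the opposite strand and 77 bases of 9230102O04Rik, which had no count.

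Gata4, a factor of heart, endoderm and the somatic cells of the gonad, was highest in R26K. Gata4 (chromosome 14, 63198922 to 63271692) was at 0.612 and 5.01 CPM in H3.3 eggs, 25.9 CPM in K27R replicate 1 with no count in K27R replicate 2, and 57.8 and 71.6 CPM in R26K. Both R26K libraries lay above the other 4, and the K27R replicates lay far apart. The log2 fold change was 4.52 ± 2.70 in R26K against H3.3 (edgeR adjusted p = 0.362) and 2.20 ± 2.44 in K27R (0.848). The K27R value turned to -8.89 without K27R replicate 1. With offsets for GC content and length the R26K value was 2.29 (edgeR adjusted p = 0.648; 0.0977 to 0.872 over all edgeR alternatives).

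Gata6, a factor of primitive endoderm and of the heart and gut (chromosome 18, 11052064 to 11085635), was likewise lowest in H3.3 replicate 1 and K27R replicate 2. It was uncounted in the first H3.3 and the second K27R library, and was at 0.594 CPM in H3.3 replicate 2, 9.67 CPM in K27R replicate 1, and 7.1 and 13.3 CPM in R26K. R26K lay above H3.3 without overlap, and K27R replicate 1 lay between the R26K libraries. Its log2 fold change in R26K was 5.08 ± 3.62 (edgeR adjusted p = 0.451), and in K27R 4.0 ± 3.44 (0.748), which turned to -5.67 without K27R replicate 1. Gata2, needed for blood stem cells, was counted in H3.3 replicate 1 (375 counts, 28.7 CPM) and R26K replicate 2 (105 counts, 3.17 CPM) and in no other library. Its calls by DESeq2 therefore rest on 1 library each. Gata5 had no count anywhere.

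Granulosa cells also express Gata4 and Gata6, so the cumulus and granulosa list was set beside them. The libraries with the fewest markers were K27R replicate 2 (5 of 36) and H3.3 replicate 1 (8 of 36), and these had the lowest levels of both genes. Summed over the list the levels were 1025 and 1880 CPM in H3.3 eggs, 2000 and 1409 in K27R eggs, and 2115 and 2055 in R26K, of which Serpine2 made up most. Inha was at 0 and 97.3 CPM in H3.3 eggs, 82.8 and 0 in K27R eggs, and 25.3 and 53.4 in R26K. Gja1 was instead highest in H3.3, at 46.1 and 60.9 CPM, against 34.5 and 0.0949 in K27R and 9.33 and 10.7 in R26K. The markers thus did not move alike. Over the 19 tested ones the median log2 fold change against H3.3 was 0.01 in R26K and -0.18 in K27R. Of the 36 markers 9 had no count in any library, Lhcgr among them, and Fshr and Foxl2 were counted only in R26K replicate 1, at 0.298 and 0.651 CPM. In these bulk samples fewer cells of a type and less RNA per cell cannot be told apart, and the part of other cells in these values was not tested.

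**Figure D3:**
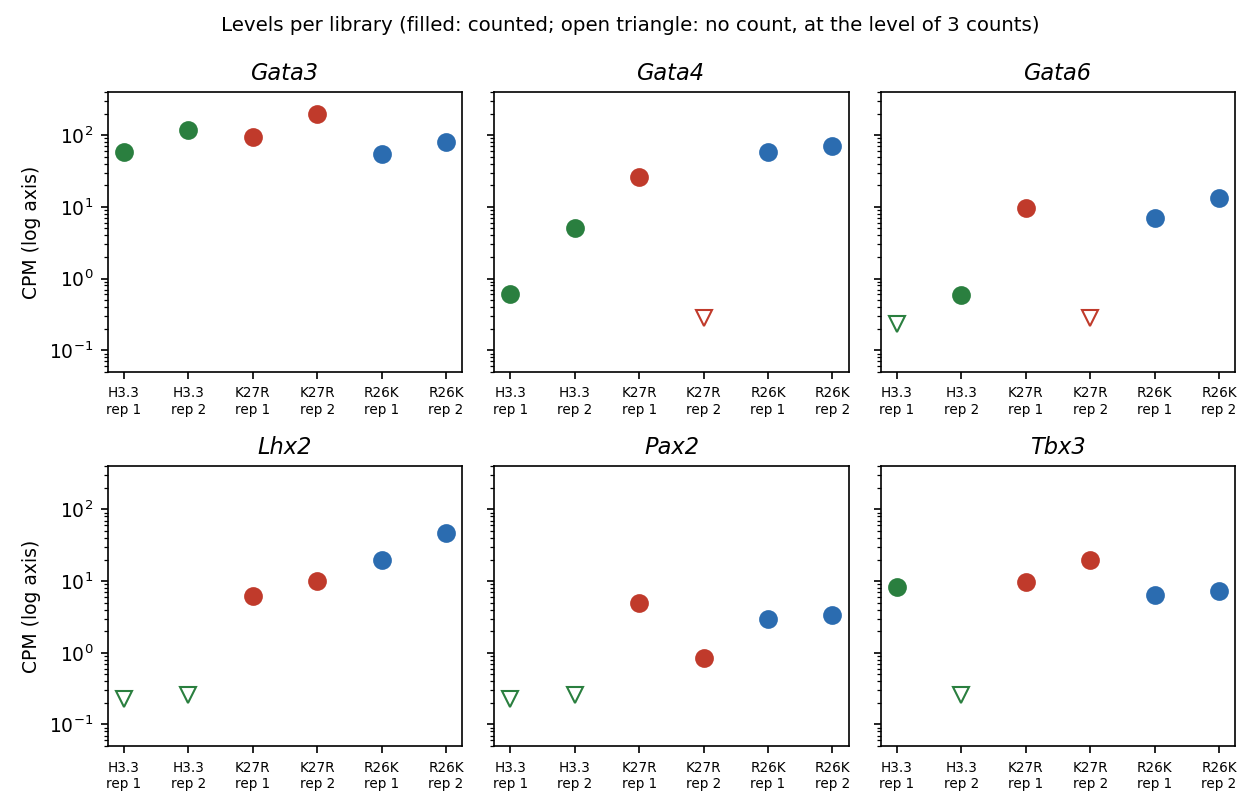
Level of 6 members in each library (vertical axis, CPM, log scale); filled points are libraries with counts and open triangles mark libraries without a count, drawn at the level of 3 counts. Lhx2 is uncounted in H3.3 eggs and reaches 20 and 46.6 CPM in those of R26K, and Gata3 is between 55.2 and 196 CPM in all 6 libraries.

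Of the LIM homeobox genes, which pattern the nervous system, Lhx2 and Lhx5 were counted and Lhx1, Lhx3 and Lhx9 were not. Lhx2 (chromosome 2, 38339281 to 38369733), a regulator of forebrain, eye and hair follicle, was uncounted in H3.3 eggs. It was at 6.1 and 10.1 CPM in K27R (75 and 106 counts) and 20 and 46.6 CPM in R26K (737 and 1544 counts), so that the 3 groups did not overlap. The mean level was 33.4-fold above the floor of 3 counts per H3.3 library in K27R and 138-fold above it in R26K. That floor covers counting error alone and does not bound the fold change. Within H3.3, Hoxa9 had 0 counts in replicate 1 and 311 in replicate 2. The unadjusted edgeR p was 0.00999 in K27R and 0.00598 in R26K, and the adjusted p 0.522 and 0.152. DESeq2 gave adjusted p of 0.000524 and 5.71e-06, while the edgeR alternatives ranged from 0.16 to 1 and from 0.0705 to 0.872. Between K27R and R26K the log2 fold change was -2.04 ± 1.71 (edgeR adjusted p = 0.837), and 0.03 with offsets for GC content and length.

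Absence from both H3.3 libraries was also seen for many other genes of like level. Of 2691 genes within 2-fold of the level of Lhx2 in R26K, 7.77% were absent from both H3.3 libraries. Of 2420 genes within 2-fold of its level in K27R, 22.7% had none. For Pax2 and Hoxd13 in R26K the shares were 47.8% and 41.3%, and for Pax2 in K27R 41.1%. Absence from H3.3 was thus rarer at the R26K level of Lhx2 than at those of Pax2 and Hoxd13.

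The transcript of Lhx2 is rich in G and C (58.5%, above 94.3% of tested genes), as are those of Gata4 (57.4%), Lhx5 (59.3%) and Pax2 (62.2%). The median over the 57 members was 54.4%, against 48.7% over tested genes. Offsets for GC content and length moved the median log2 fold change of all tested genes in R26K against H3.3 from 0.66 to 0.12. Under them the edgeR adjusted p of Lhx2 against H3.3 was 0.235 in R26K and 0.522 in K27R; the sign of this difference is fixed by the 0 counts of H3.3.

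Lhx5, of the developing forebrain, was at 0.765 and 0.933 CPM in H3.3 eggs, 0.813 CPM in K27R replicate 1 with no count in K27R replicate 2, and 3.69 and 2.72 CPM in R26K. R26K lay above the other libraries, with a log2 fold change against H3.3 of 1.91 ± 2.28 (edgeR adjusted p = 0.703) that turned to -0.55 with the GC and length offsets. In K27R it was -1.04 ± 2.24 (0.977). Its exons overlap Gm27199, and those of Tbx3 overlap Tbx3os1, both on the opposite strand, whose reads cannot be told apart without strand.

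Among Pax genes, paired-box regulators of organ formation, Pax2 was counted in both libraries of a group. Pax2 (chromosome 19, 44756045 to 44837871), of kidney and inner ear, was uncounted in H3.3 eggs and stood at 4.96 and 0.854 CPM in K27R eggs, and 2.98 and 3.41 CPM in R26K. The R26K libraries lie between the K27R libraries. Its mean was 12-fold above the H3.3 floor in K27R (edgeR adjusted p = 0.522) and 13.2-fold above it in R26K (0.213). That floor covers counting error alone. Pax6, of the eye, was at 7.23 CPM in K27R replicate 1 and 0.181 CPM in R26K replicate 2, with no count elsewhere. Pax3 had 79 counts in R26K replicate 1 and 1 in K27R replicate 1, and Pax5 and Pax9 had 40 and 33 counts in a single library each. Pax9 shares 189 exon bases with Slc25a21 on the opposite strand, which had 12 counts in the same library. Slc25a21 had 327, 113 and 81 counts in H3.3 replicate 1, K27R replicate 2 and R26K replicate 2, where Pax9 had none. Whether its reads are among the 33 counts of Pax9 was not tested. Pax1, Pax7 and Pax8 had none.

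T-box factors were silent except Tbx3, a regulator of limb and mammary development, and 23 counts of Eomes in H3.3 replicate 1. Tbx3 (chromosome 5, 119670669 to 119684724) was at 8.26 CPM in H3.3 replicate 1 with no count in H3.3 replicate 2, at 9.59 and 19.7 CPM in K27R, and at 6.43 and 7.34 CPM in R26K. K27R lay above the other libraries, and H3.3 replicate 1 above both R26K libraries. The log2 fold change was 1.82 ± 2.66 in K27R (edgeR adjusted p = 0.922) and 0.74 ± 2.59 in R26K (0.925) against H3.3. The R26K value turned to -0.26 without H3.3 replicate 2 and to -0.61 with the GC and length offsets.

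The Hox genes, which set position along the body axis from 4 clusters, were close to silent. Of the 16 Hox members 7 were counted, and 5 of these in a single library: Hoxa9 (311 counts, 26.4 CPM, H3.3 replicate 2), Hoxc10 (105 counts, 9.96 CPM, K27R replicate 2), Hoxd8 (110 counts, 2.98 CPM, R26K replicate 1), Hoxc8 (22 counts, R26K replicate 1) and Hoxb4 (3 counts, R26K replicate 2). Thus each group held a Hox transcript that its other library lacked. Hoxd13, of digits and genital tubercle, had no count in H3.3 or K27R replicate 2, 1.22 CPM in K27R replicate 1, and 6.18 and 2.51 CPM in R26K. Its R26K mean was 17.9-fold above the H3.3 floor, which covers counting error alone (edgeR adjusted p = 0.233 against H3.3). Hoxa13 had 13 counts in K27R replicate 1 and 66 in R26K replicate 2. Together with the 23 other Hox genes, 15 of 39 were counted and 2 in at least 3 libraries, Hoxd13 and Hoxa7. Hoxa7 was counted in all 6, at 45.5 and 117 CPM in H3.3 eggs, 104 and 200 in K27R eggs, and 106 and 103 in R26K. An exon of Hoxa9 contains Mir196b and one of Hoxc10 overlaps Hoxc5, neither of which had a count of its own.

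The other members gave few counts. Foxa1, a pioneer factor of endoderm, had 19 counts in K27R replicate 1 and 66 in R26K replicate 2, and Foxc1, of mesoderm and eye, had 16 in K27R replicate 1 and 68 in R26K replicate 1. Sox17, of endoderm, had 49 in R26K replicate 1, where 804 exon bases are shared with Gm37587. Sox9, Nkx6-1 and Dlx5 had 1 count in a library where they were seen. Six2, Otx2, Neurog1, Hand1 and Cdx2, and the remaining Hox, Tbx, Sox, Fox and Nkx members, had no count in any library.

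Without a threshold on p, 6 of the 57 members lay higher in both R26K libraries than in both H3.3 libraries (10.5%), against 22.8% of all genes. They were Lhx2, Lhx5, Pax2, Gata4, Gata6 and Hoxd13. In K27R 3 members did so (5.26%), Lhx2, Pax2 and Tbx3, against 7.37%. None lay lower in either, against 7% and 4.46%. Only the 3 members counted in both H3.3 libraries could have done so, and the contrast says little about direction. Between K27R and R26K, 2 members were higher in K27R (3.51%, all genes 8.01%) and 4 lower (7.02%, all genes 18.5%).

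**Figure D4:**
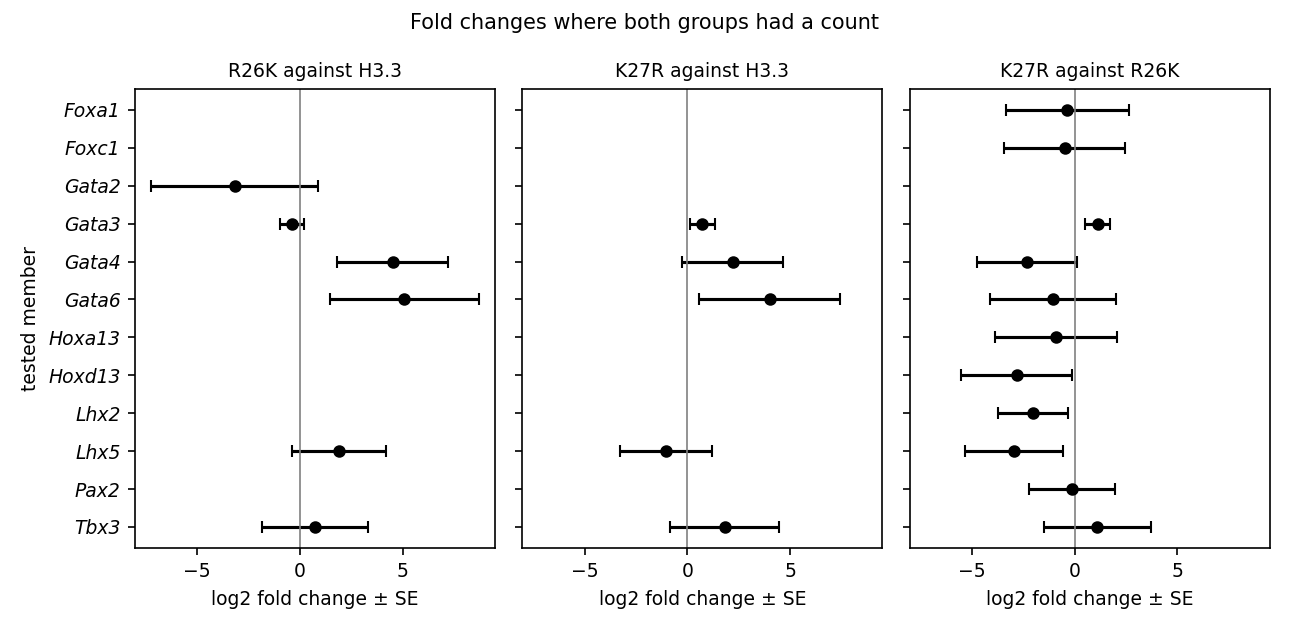
Log2 fold change of tested members (horizontal axis, point with SE bar) in the 3 comparisons, shown where both groups had at least 1 count. None passed the test, and the bars of most members span several log2 units, while that of Gata3 is about 0.60.

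Of the Polycomb machinery, 10 or 11 of 12 genes of repressive complex 2 were counted in each library. Of 23 genes of complex 1, 13 and 13 were counted in H3.3 libraries, 18 and 16 in those of K27R, and 19 and 19 in those of R26K. Ring1, Pcgf5, Phc1, L3mbtl2 and Bcor were among those counted in R26K (Ring1 and Pcgf5 in replicate 1 only) and not in H3.3. Each of these was also counted in at least 1 K27R library, Ring1 there with 1 count only. Cbx7 and Cbx8 were not: they had 51 and 13 counts in R26K replicate 2 and none in H3.3 or K27R. L3mbtl2 and Bcor peaked in a K27R library, and Ring1, Pcgf5 and Phc1 in an R26K library. Of all genes without a count in H3.3, 30.5% were counted in at least 1 R26K library, and 19% for K27R. The genes named here were picked after their values were seen. Of 11 tested genes of repressive complex 2, 1 was higher in R26K against H3.3 and none lower, namely the accessory subunit Phf1 (edgeR adjusted p = 0.0113). Phf1 stood at 52.5 and 63.7 CPM in eggs with H3.3, 121 and 159 CPM in K27R eggs, and 1367 and 1604 CPM in R26K, and was also lower in K27R against R26K (edgeR adjusted p = 0.0182). The catalytic subunit Ezh2 was at 495 and 473 CPM in H3.3 eggs, 455 and 321 in K27R eggs, and 555 and 554 in R26K. Of its partners, Eed was at 398 to 634 CPM over the libraries and Suz12 at 142 to 312 CPM. Of 18 tested genes of complex 1, 1 was higher in R26K, Phc2 (edgeR adjusted p = 0.0352), and none lower. Phc2 stood at 180 and 108 CPM in eggs with H3.3, 273 and 457 CPM in K27R eggs, and 1327 and 1508 CPM in R26K. Neither call against H3.3 held in the fit of these 2 groups alone (edgeR adjusted p = 0.0705 for both), without K27R replicate 1 (0.0542 for Phf1, 0.112 for Phc2) or without K27R replicate 2 (0.0634 and 0.113), and that of Phc2 was also lost without H3.3 replicate 2 (0.0663). With the GC and length offsets the log2 fold change of Phf1 was 2.26 in place of 4.68 (edgeR adjusted p = 0.0939), and that of Phc2 was 0.51 (0.516). Over 15 alternatives, DESeq2 included, the adjusted p ranged from 1.28e-43 to 0.0939 for Phf1 and from 1.76e-12 to 0.516 for Phc2. The difference of Phf1 between K27R and R26K was not called with the offsets (-1.36, edgeR adjusted p = 0.339) or without K27R replicate 1 (0.15) or 2 (0.238). Among H3K27 demethylases and acetyltransferases none of 4 tested genes passed in any comparison. The demethylase Kdm6b was at 204 and 176 CPM in H3.3 eggs, 219 and 245 in K27R eggs, and 88.1 and 102 in R26K (edgeR adjusted p = 0.213 for R26K). These 4 genes did not move alike. In R26K against H3.3 the log2 fold change was -0.995 for Kdm6b, -0.21 for Kdm6a, -1.71 for Crebbp and 1.87 for Ep300. None of the tested genes of these lists passed in K27R against H3.3, where no gene of the table did. Of the related regulators, 20 were tested and none passed in any comparison. Among them Meis2, a homeodomain partner of Hox proteins, was at 2016 and 1306 CPM in H3.3 eggs, 1662 and 2158 in K27R eggs, and 1229 and 776 in R26K, and Tbx4, of the hindlimb, at 84.9 to 232 CPM.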

How the data were processed

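Messenger RNA was profiled in 6 libraries of mouse MII eggs, 2 for each of 3 groups as titled. SMARTer Ultra Low cDNA went into Nextera libraries, a kit without strand information, and was read from 1 end for 50 bases, per the labels. The submitters' processing notes name mm10 and the tools TopHat2 2.1.0, cutadapt 1.9.1, featureCounts and SAMtools 1.3; how reads on several loci or strands were counted is not stated there. The deposited values are whole-number counts per gene symbol, without normalization. From these, CPM on library totals with TMM scaling were computed, and edgeR 4.0.16 (R 4.3.3; filterByExpr, 3 group means over all 6 libraries, 3 residual degrees of freedom, two-sided quasi-likelihood test) was run on the whole table. SE is the log2 fold change over the square root of F. A detected gene has at least 1 count. Separate females are not stated, so a p-value reflects only how far these libraries scatter. GENCODE M21 (mm10) gave positions, exon lengths, overlaps and GC content (98.5% of symbols matched); a blastn 2.17.0 search found no transcript of a gene elsewhere with 95% identity over 200 bases to a member. Epop and Adgre1 were read under older symbols, and Gcna was not analysed here. Members, lists and tests were chosen with earlier results of these data known. A member is given by library when its mean is at least 1 CPM, it passes a test, or it is counted in both libraries of a single group; of each other list at most 6 genes are named. Genes named outside this are Pax3, Pax5, Pax9 and others with few counts, listed to account for all members. Cbx7 and Cbx8 of complex 1 are also named outside it. Alternatives were DESeq2 1.42.0, other scalings and filters, fits of 4 libraries, robust spread, a replicate block, each library left out, GC and length offsets (loess, over genes of at least 50 CPM), and other detection limits. The steps were tested on simulated counts with a common spread and changes placed in genes of at least 10 CPM. That test does not cover rare members whose replicates lie far apart.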

Additional observations from a re-analysis of the deposited data

How the results depend on the processing

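No member passed the edgeR test under any of its alternatives. DESeq2 called 1 member higher in R26K and 1 in K27R against H3.3 (Lhx2), and 1 lower in K27R against H3.3 and 1 against R26K (Gata2). Of 472 fold changes of members under alternatives, 19 reversed and 4 became called, all by DESeq2, for Lhx2 and Gata2; the cause of reversals was not tested. In R26K against H3.3, offsets for GC content and length reversed Lhx5 (-0.55) and Tbx3 (-0.61), and single libraries left out gave -10.93 to 8.04 for Gata2, -0.81 to 0.21 for Gata3 and -0.26 to 10.17 for Tbx3. In K27R against H3.3 they gave -8.89 to 4.38 for Gata4 and -5.67 to 9.68 for Gata6. In K27R against R26K, the offsets gave 0.0348 for Lhx2, 2.32 for Pax2, 0.0123 for Gata6, 0.61 for Foxa1 and 0.66 for Foxc1, upper-quartile scaling gave 0.0712 for Pax2, and libraries left out gave -7.41 to 0.0949 for Hoxa13, -1.90 to 0.64 for Pax2, -7.41 to 6.72 for Foxa1 and -7.29 to 6.44 for Foxc1. Upper-quartile scaling moved the median of all genes by -0.20 in R26K against H3.3 and by 0.22 in K27R against R26K. The replicate numbers are not stated to pair libraries, and differences between replicates 1 and 2 correlated across groups at 0.0118, -0.0132 and 0.00414; the replicate block gave 0 calls among members. Members detected at 1 CPM or more were 5 and 3 in H3.3 in place of 8 and 5.

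Over all genes, R26K against H3.3 gave 43 higher and 23 lower, with 178 and 63 without a filter, 111 and 42 at 10 CPM, 1212 and 418 by DESeq2, 0 and 0 in the fit of 4 libraries, 195 and 65 with the replicate block, 8 higher with the offsets, and 1 to 147 and 0 to 56 with a library left out. K27R against H3.3 gave 0 and 0, with 534 and 153 by DESeq2 and 0 to 5 higher with a library left out. K27R against R26K gave 18 and 22, with 56 and 100 without a filter, 37 and 58 at 10 CPM, 247 and 508 by DESeq2, 7 higher in the fit of 4, 61 and 134 with the replicate block, 8 lower with the offsets, and 0 to 52 and 0 to 95 with a library left out. The scatter between replicates and the genes missing from H3.3 and K27R replicate 2 limit what these levels can show.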

Other observations

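A LIM homeobox gene of the oocyte, which is not among the members, had the order of groups seen for Lhx2. Lhx8, needed for the growth of early oocytes, was at 0 and 0.594 CPM in H3.3 eggs, 11.1 and 21.3 CPM in K27R eggs, and 75.1 and 73.6 CPM in R26K, so that the 3 groups did not overlap. Its log2 fold change was 7.95 ± 2.1 in R26K against H3.3 (edgeR adjusted p = 0.171) and 5.75 ± 1.91 in K27R (edgeR adjusted p = 0.522). Taf4b, an oocyte subunit of the general transcription machinery, had no count in H3.3, 7.56 and 15.9 CPM in K27R eggs, and 43.2 and 38.6 CPM in R26K. Foxo3, which restrains the activation of primordial follicles, was at 0 and 1.19 CPM in H3.3 eggs, 3.01 and 3.23 CPM in K27R eggs, and 37.1 and 30.1 CPM in R26K. These genes were chosen from the list of oocyte transcription factors after their values were seen. None of them passed the test in these comparisons. Of the 19 tested genes of that list, only Zfp57 was called, and it was lower in R26K. It was at 932 and 952 CPM in H3.3 eggs, 1159 and 1210 in K27R eggs, and 279 and 331 in R26K. The edgeR adjusted p was 0.0486 relative to H3.3 eggs and 0.0338 relative to K27R eggs. In fits of the 2 groups alone neither difference was called (0.0705 and 0.0583). Sall4 was also lower in R26K, at 360 and 559 CPM, than in H3.3, at 2118 and 2496 (edgeR adjusted p = 0.0551).

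Neurog3, a neural and endocrine factor of the list of related regulators, was counted in every library, at 7.81 and 18.1 CPM in H3.3 eggs, 22.3 and 9.39 CPM in K27R eggs, and 63.8 and 54.1 CPM in R26K eggs (for R26K against H3.3, edgeR adjusted p = 0.287). Evx1, of the posterior axis, was at 5.36 and 0.255 CPM in H3.3 eggs, 3.17 and 0 CPM in K27R eggs, and 58.3 and 44.8 CPM in R26K eggs (for R26K against H3.3, edgeR adjusted p = 0.382). Both were chosen after their values were seen.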
